A study of Sus scrofa with 8 samples.

Results

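The complement genes described here are 8 mRNAs of the pig liver, found by gene symbol from 9 names that cover the start of the cascade (C1QA, C1S), its central protein (C3), the alternative pathway (CFB, CFD), a regulator (CFI) and the terminal pathway (C5, C7, C9). C1S matched no identifier of the mRNA table and was not analysed here. The 8 genes are 8 of 21607 mRNA rows and of 16898 mRNAs above 0 in at least 2 of the 4 libraries. They were chosen by name, with earlier results of these data known, though the rule itself uses no value of these livers. The study compared the livers of female Yana pigs, an indigenous Chinese breed, in 2 young sows of 180 days and 2 old sows of 8 years. The sows were untreated, unrelated and fasted before slaughter, and each liver gave 1 rRNA-depleted RNA-seq library, so n is 2 per age. By the paper, the young sows had not given birth, whereas the old sows had farrowed over many years and were culled at low production. Parity and reproductive state therefore cannot be told apart from age here. Liver pieces were sequenced whole, and fewer cells of a type cannot be told apart from less RNA per cell. Nothing in the labels names a batch.

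Complement is a cascade of plasma proteins that marks microbes and damaged cells for removal, and hepatocytes make most of it. The classical pathway starts when C1q binds antibody, the lectin pathway when collectins or ficolins bind sugars, and the alternative pathway runs continuously from C3. All of them cleave C3, after which C5 is cleaved and C6, C7, C8 and C9 assemble into a pore in the target membrane. C1q is an exception to the hepatic origin, being made mainly by macrophages, and factor D (CFD, also called adipsin) is known above all from adipose tissue.

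Values are given as CPM, reads scaled to a library total that is not stated. They carry no correction for gene length, so each gene is compared between livers and no order of levels among genes is drawn. The libraries held 37555696 and 37125093 reads on mRNAs in young sows against 22482241 and 24866406 in old sows, and the fewest reads behind any value of the 8 genes were 459, for CFD in young replicate 2. Depth therefore differed with age, and its part in the results was not tested. Fold changes are limma differences, old minus young, of log2(CPM + 1). A gene was called where its adjusted p was under 0.05 and its log2 fold change beyond 1 in either direction. PCR reads are not independent molecules, so read numbers speak to counting error only.

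CFD stood out as higher and CFI as lower in old sows, C1QA was slightly higher, and CFB, C5 and C9 were lower with smaller differences. C3 and C7 overlapped between ages. None of the 8 genes was called by limma, where 0% of all tested mRNAs were called and the smallest adjusted p was 0.213. At an unadjusted p under 0.05 in limma, 2 of the 8 genes passed, against 15.7% of all tested mRNAs. These were CFD above, as 6.78% of all mRNAs were, and CFI below, as 8.93% were. The quasi-likelihood test of edgeR on reads called none of the 8 (0% of all mRNAs), with 2 of the 8 and 14.6% of all mRNAs at an unadjusted p under 0.05. The exact test of edgeR called CFD, against 3.16% of all mRNAs called, 2.70% higher and 0.456% lower, and put 2 of the 8 and 13.0% of all mRNAs under an unadjusted p of 0.05. DESeq2 called CFD and CFI, against 5.21% of all mRNAs called, 4.04% higher and 1.17% lower, and put 2 of the 8 and 14.5% of all mRNAs under an unadjusted p of 0.05. By size alone, CFD was the 1 gene of 8 with a log2 fold change above 1, which 4.93% of all tested mRNAs and 7.70% of those with a mean of at least 1 CPM had. CFI was the 1 gene of 8 below -1, against 4.56% and 7.66%.

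**Figure D1:**
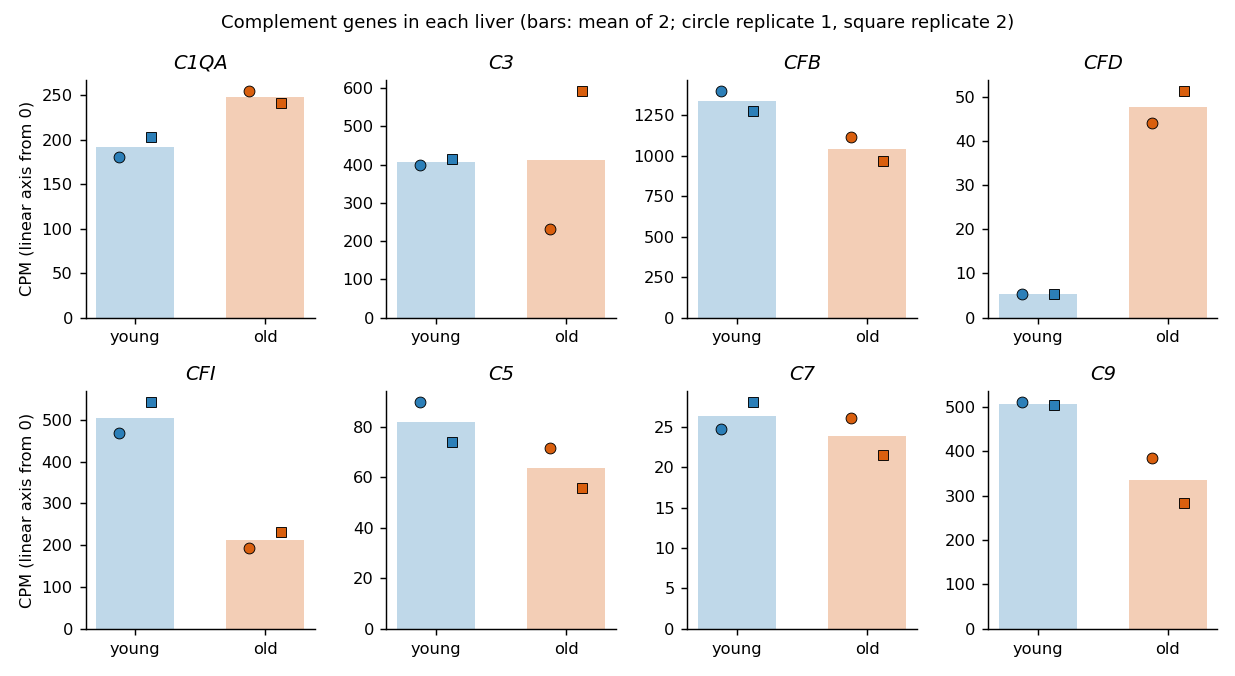
CPM of the 8 complement genes in each liver, on linear axes from 0, with bars for the mean of 2 livers, circles for replicate 1 and squares for replicate 2. CFD lies at 44.1 and 51.3 CPM in old sows against 5.26 and 5.30 in young sows, and the old livers lie on both sides of the young ones only for C3.

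Of the genes of the alternative pathway, CFD showed the widest separation. It encodes the serine protease that cleaves factor B once that is bound to C3b. CFD (ENSSSCG00000013418) was at 5.26 and 5.30 CPM in young sows (483 and 459 reads) and at 44.1 and 51.3 CPM in old sows (2713 and 3685 reads). Both old livers were above both young livers, and the livers of one age differed far less than the ages did. The mean was 5.28 ± 0.031 CPM (SD, n = 2) in young and 47.7 ± 5.10 CPM (SD, n = 2) in old livers, a ratio of 9.03. On the log2 scale the fold change was 2.95 (SE 0.14, 95% interval 2.54 to 3.36, adjusted p = 0.213, limma), and with 1 library left out it lay between 2.84 and 3.06. Only 0.272% of tested mRNAs, or 0.470% of the 9790 with a mean of at least 1 CPM, were as far or farther above. The adjusted p was 9.00e-07 in the exact test of edgeR, 1.04e-18 in DESeq2 and 0.276 in the quasi-likelihood test of edgeR, so the call depends on the test.

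CFB encodes factor B, which supplies the protease of the alternative C3 convertase. CFB (ENSSSCG00000024914) was at 1400 and 1274 CPM in young sows against 1116 and 969 CPM in old sows. The old livers were lower without overlap, 1043 ± 104 CPM (SD, n = 2) against 1337 ± 89.0 CPM (SD, n = 2), but the gap between the ages was about as wide as the gap between the livers of one age. The log2 fold change was -0.36 (SE 0.14, 95% interval -0.80 to 0.08, adjusted p = 0.375, limma). With each library scaled to its summed mRNA values the ages overlapped, and the fold change was -0.18 to -0.12 under the 3 other scalings.

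C3 encodes the protein on which all pathways converge. C3 (ENSSSCG00000013551) was at 399 and 414 CPM in young sows, with 231 CPM for old replicate 1 against 592 CPM for old replicate 2. The old livers thus stood on opposite sides of the young pair, and differed from each other 2.56-fold. The means were nearly equal, 406 ± 10.7 CPM (SD, n = 2) in young and 412 ± 255 CPM (SD, n = 2) in old livers. The log2 fold change was -0.13 with a wide interval from -1.78 to 1.51 (SE 0.54, adjusted p = 0.942, limma), was 0.54 without old replicate 1 and was -0.81 without old replicate 2. The sign also turned with scaling and with the count tests. A gap between the old livers of this size or more, 1.35 on the log2 scale, was found in 4.52% of all tested mRNAs and in 7.43% of those with a mean of at least 1 CPM.

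CFI encodes factor I, the protease that inactivates C3b and C4b and so limits the cascade. CFI (ENSSSCG00000009138) was at 469 and 541 CPM in young sows against 193 and 231 CPM in old sows. Both old livers were at less than both young livers by a margin wider than either within-age gap. The mean was 505 ± 51.0 CPM (SD, n = 2) in young and 212 ± 26.9 CPM (SD, n = 2) in old livers, 2.38-fold lower. Its log2 fold change was -1.25 (SE 0.17, 95% interval -1.76 to -0.74, adjusted p = 0.213, limma), and -1.38 to -1.12 with 1 library left out. As far or farther below were 2.25% of tested mRNAs, or 3.88% of those with a mean of at least 1 CPM. DESeq2 called it (log2 fold change -1.08, adjusted p = 0.0424), whereas the exact test of edgeR did not (-1.06, adjusted p = 0.377).

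C1QA encodes the A chain of C1q, the recognition unit of the classical pathway. C1QA (ENSSSCG00000003524) was at 181 and 204 CPM in young sows against 255 and 241 CPM in old sows. The old livers were higher without overlap, 248 ± 9.53 CPM (SD, n = 2) against 192 ± 16.0 CPM (SD, n = 2), a ratio of 1.29. On the log2 scale this was 0.37 (SE 0.13, 95% interval -0.02 to 0.76, adjusted p = 0.338, limma), and 0.60 with each library scaled to its summed mRNA values. Of 10 macrophage markers without C1q, 8 had an identifier. Their summed level was 103 and 135 CPM in young sows against 237 and 188 CPM in old sows, with none at 0. Of the 8 markers, 4 were above without overlap, 1 below and 3 overlapped, beside 24.4% and 25.0% of all tested mRNAs. For mRNAs with a mean of at least 1 CPM these shares were 17.8% and 32.9%. CLEC4F alone was at 21.0 and 32.2 CPM in young sows, with 102 CPM for old replicate 1 against 0.933 CPM for old replicate 2, and the median over the markers, 14.4 and 17.6 CPM in young sows against 19.4 and 10.6 CPM in old sows, overlapped. The part of macrophage RNA in the C1QA difference was not tested. The B and C chains of C1q had no matched identifier and were not analysed here.

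In the terminal pathway, C9, the subunit that polymerises to form the pore wall, was lower in old sows. C9 (ENSSSCG00000016856) was at 509 and 504 CPM in young sows against 385 and 283 CPM in old sows. The young livers were nearly equal, and both old livers were lower but differed from each other. The mean was 507 ± 3.78 CPM (SD, n = 2) in young and 334 ± 71.7 CPM (SD, n = 2) in old livers, 1.52-fold lower. The log2 fold change of C9 was -0.62 (SE 0.20, 95% interval -1.23 to 0.000045, adjusted p = 0.318, limma). It was -0.40 without old replicate 2, -0.84 without old replicate 1, and -0.44 to -0.38 under the other scalings.

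C5 encodes the protein whose cleavage starts pore assembly and releases the chemoattractant C5a. C5 (ENSSSCG00000005512) was at 89.5 and 73.8 CPM in young sows against 71.7 and 55.7 CPM in old sows. Young replicate 2 and old replicate 1 nearly touched, and under each of the 3 other scalings the ages overlapped. The log2 fold change was -0.36 (SE 0.21, 95% interval -0.99 to 0.27, adjusted p = 0.509, limma). It was -0.18 without old replicate 2, -0.22 without young replicate 1, -0.54 without old replicate 1, and -0.18 to -0.13 under the other scalings.

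C7 encodes the subunit that gives the growing complex its grip on the membrane. C7 (ENSSSCG00000016859) was at 24.7 and 28.0 CPM in young sows against 26.1 and 21.6 CPM in old sows. The ages overlapped, the log2 fold change was -0.14 (SE 0.16, 95% interval -0.64 to 0.35, adjusted p = 0.735, limma), and its sign turned under the other scalings and count tests. These intervals leave room for differences that 2 livers per age could not show.

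Counted together, 2 of the 8 genes were above (CFD, C1QA) and 4 below (CFB, CFI, C5, C9) in old livers without overlap, against 24.4% and 25.0% of all tested mRNAs. Among mRNAs with a mean of at least 1 CPM these shares were 17.8% and 32.9%. For either direction the background was 49.3%, and 50.7% among mRNAs with a mean of at least 1 CPM, beside 6 of the 8 genes. The count was 5 of 8 with TMM factors or median ratios, where C5 overlapped, and 4 of 8 with summed mRNA values, where CFB overlapped too. The share over all mRNAs was not computed under these scalings, so these counts have no background of their own. CFD, C1QA, CFI and C9 stayed without overlap in the same direction under these scalings. The median log2 fold change of the 8 genes was -0.25, against -0.02 over all tested mRNAs and -0.15 over those with a mean of at least 1 CPM. The last value moved to between -0.02 and 0.02 under the other scalings, and relative to it CFD stood at 3.10 to 3.14, C1QA at 0.52 to 0.58, CFI at -1.10 to -1.04 and C9 at -0.46 to -0.41. The 8 genes together took 0.753% and 0.710% of mRNA reads in young sows against 0.636% and 0.707% in old sows.

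**Figure D2:**
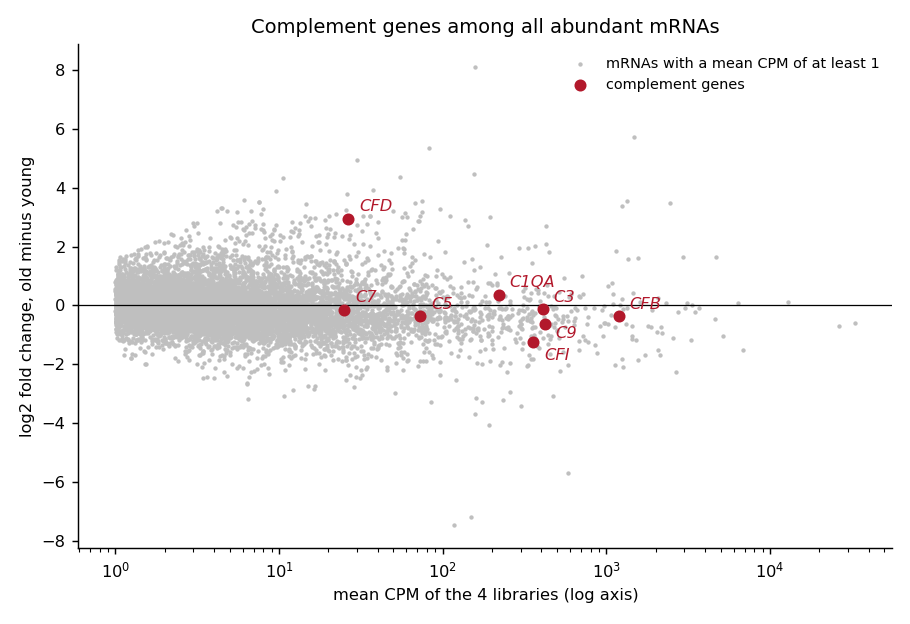
Log2 fold change of log2(CPM + 1), old minus young, against the mean CPM of the 4 libraries on a log axis, for 9790 mRNAs with a mean of at least 1 CPM (grey) and the 8 complement genes (red). CFD lies at 2.95 near the upper edge of the cloud and CFI at -1.25 towards the lower one, and the other 6 genes lie between -0.62 and 0.37.

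The proteins of these mRNAs act on each other, and ratios within a library do not depend on how libraries are scaled. A ratio between genes is not corrected for length, so only its change from liver to liver is read. CFD per 1000 CPM of CFB, its substrate, was 3.76 and 4.16 in young sows against 39.5 and 52.9 in old sows, an 11.7-fold higher mean. CFI per 1000 CPM of CFB was 335 and 425 in young sows against 173 and 238 in old sows, and the livers of the 2 ages did not overlap. CFI per 1000 CPM of C3, the precursor of its substrate, was 1177 and 1309 in young sows, with 834 for old replicate 1 against 390 for old replicate 2. The mean of that ratio was 2.03-fold lower in old livers. CFB per 1000 CPM of C3 showed no separation, with 3513 and 3081 in young sows against 4823 and 1636 in old sows. C9 per CPM of C7 was 20.6 and 18.0 in young sows against 14.8 and 13.1 in old sows, 1.38-fold lower on average. For each of 9 ratios computed, 2 livers against 2 allow no exact permutation p below 0.333, two-sided, so these separations cannot pass a threshold.

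**Figure D3:**
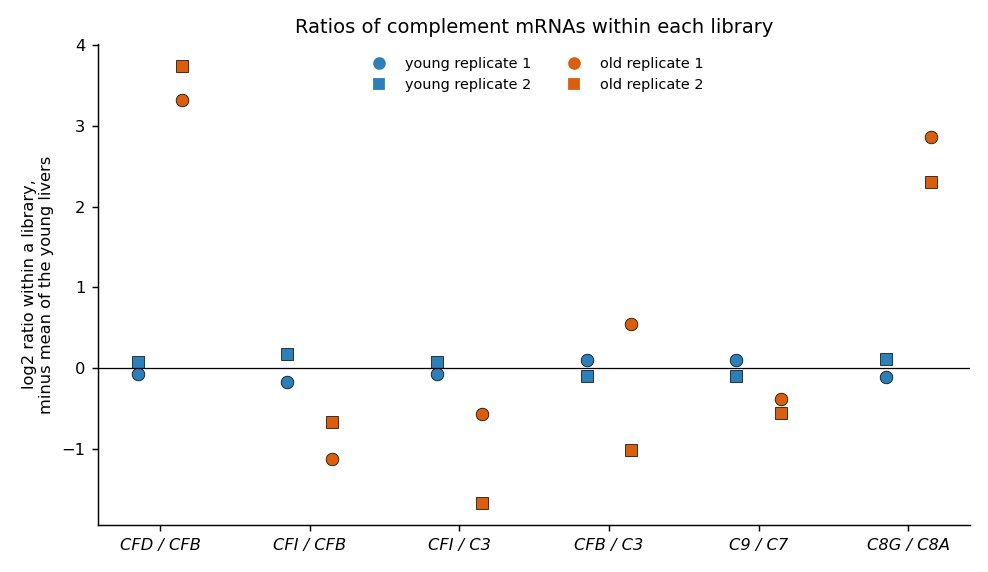
Log2 ratio of CPM values within each library for 6 pairs of complement mRNAs, with the mean of the young livers set to 0, young livers in blue and old livers in orange, circles for replicate 1 and squares for replicate 2. The old livers lie above the young ones for CFD to CFB and C8G to C8A, below them for CFI to CFB, CFI to C3 and C9 to C7, and on both sides for CFB to C3.

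Of 47 further complement genes listed by role, 26 had an identifier and 25 were above 0 in at least 2 libraries. None of the 25 was called by limma or the quasi-likelihood test of edgeR. At an unadjusted p under 0.05 in limma, 9 of the 25 passed, 5 with higher and 4 with lower values in the old sows, beside 15.7% of all mRNAs, 6.78% higher and 8.93% lower. The exact test of edgeR called C8G and FCN2, beside 3.16% of all mRNAs, and DESeq2 called these and CPN1, beside 5.21%. Without overlap between ages, 11 were above and 9 below, beside 24.4% and 25.0% of all tested mRNAs. For mRNAs with a mean of at least 1 CPM these shares were 17.8% and 32.9%. The median log2 fold change of the 25 was -0.01. The 11 include CSMD1, which had at most 1 read in any library and is under the limit of 3 reads. These genes thus shared no common direction.

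In the terminal pathway, C8G had the largest log2 fold change of the 25 on the log2(CPM + 1) scale. C8G, the small lipocalin-like chain of C8, was at 170 and 157 CPM in young sows against 655 and 725 CPM in old sows, a log2 fold change of 2.07 (SE 0.13, adjusted p = 0.213, limma; 0.00256 in the exact test of edgeR). The means of the chains it joins were lower. C8A, the alpha chain, was at 424 and 338 CPM in young sows against 208 and 341 CPM in old sows, which overlapped. C8B, the beta chain, was at 183 and 171 CPM in young sows against 66.8 and 122 CPM in old sows (log2 fold change -0.96, SE 0.36, adjusted p = 0.353, limma). Its fold change was -0.53 without old replicate 1 and -1.39 without old replicate 2. C8G per CPM of C8A was accordingly 0.400 and 0.465 in young sows against 3.15 and 2.12 in old sows. C6, the first subunit to bind C5b, was at 217 and 211 CPM in young sows against 187 and 153 CPM in old sows. C9 per CPM of C6 was 2.34 and 2.38 in young sows against 2.06 and 1.85 in old sows, a mean 1.21-fold lower.

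Among 7 tested genes of the classical and lectin pathways, 4 were higher and 2 lower without overlap, beside 24.4% and 25.0% of all tested mRNAs. For mRNAs with a mean of at least 1 CPM these shares were 17.8% and 32.9%. FCN2, a ficolin that recognises acetylated sugars, was at 36.8 and 42.7 CPM in young sows against 148 and 107 CPM in old sows (log2 fold change 1.64, SE 0.23, adjusted p = 0.213, limma; 0.0311 in the exact test of edgeR). C2 is the counterpart of factor B in the classical and lectin convertase and its neighbour on the chromosome in the RefSeq annotation of Sscrofa11.1. C2 was at 72.7 and 86.6 CPM in young sows against 96.5 and 109 CPM in old sows (log2 fold change 0.36, SE 0.16, adjusted p = 0.407, limma). Its fold change was 0.24 without young replicate 1 and 0.54 to 0.60 under the other scalings. CFB and C2 therefore lay on opposite sides of their young values, and CFB per CPM of C2 was 19.3 and 14.7 in young sows against 11.6 and 8.93 in old sows.

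Of the 8 tested regulators, 4 were lower and 2 higher without overlap, beside 25.0% and 24.4% of all tested mRNAs. Among mRNAs with a mean of at least 1 CPM, 32.9% were lower and 17.8% higher. CSMD1, at 1 read or none per library, is 1 of the 2 higher regulators. Beside CFI, 3 were lower by more than 1 on the log2 scale. CPN1, the catalytic chain of the carboxypeptidase that trims C3a and C5a, was at 54.3 and 64.0 CPM in young sows against 18.5 and 23.6 CPM in old sows (log2 fold change -1.45, SE 0.19, adjusted p = 0.213, limma; 0.0166 in DESeq2). C4BPA, the cofactor with which factor I cleaves C4b, was at 86.6 and 65.1 CPM in young sows against 28.7 and 40.4 CPM in old sows (log2 fold change -1.12, SE 0.27, adjusted p = 0.255, limma). VTN, the plasma protein vitronectin that blocks pore insertion, was at 1298 and 1060 CPM in young sows against 278 and 756 CPM in old sows, and its log2 fold change of -1.35 (SE 0.58, adjusted p = 0.404, limma) was -0.63 without old replicate 1 and -2.07 without old replicate 2. None of these 3 was called by limma.

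Of the 5 tested receptors, 3 were higher and 1 lower without overlap, beside 24.4% and 25.0% of all tested mRNAs. ITGB2, the beta chain shared by complement receptors 3 and 4 of leukocytes, was at 0.893 and 1.91 CPM in young sows against 4.34 and 3.54 CPM in old sows (log2 fold change 1.07, SE 0.28, adjusted p = 0.269, limma). C5AR2, a receptor for C5a, was at 0.468 and 0.196 CPM in young sows (43 and 17 reads) and at 2.45 and 1.04 CPM in old sows (151 and 75 reads), and its limma adjusted p was 0.323. Its log2 fold change ran from 0.33 with a pseudocount of 5 to 2.60 in the edgeR tests on reads.

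**Figure D4:**
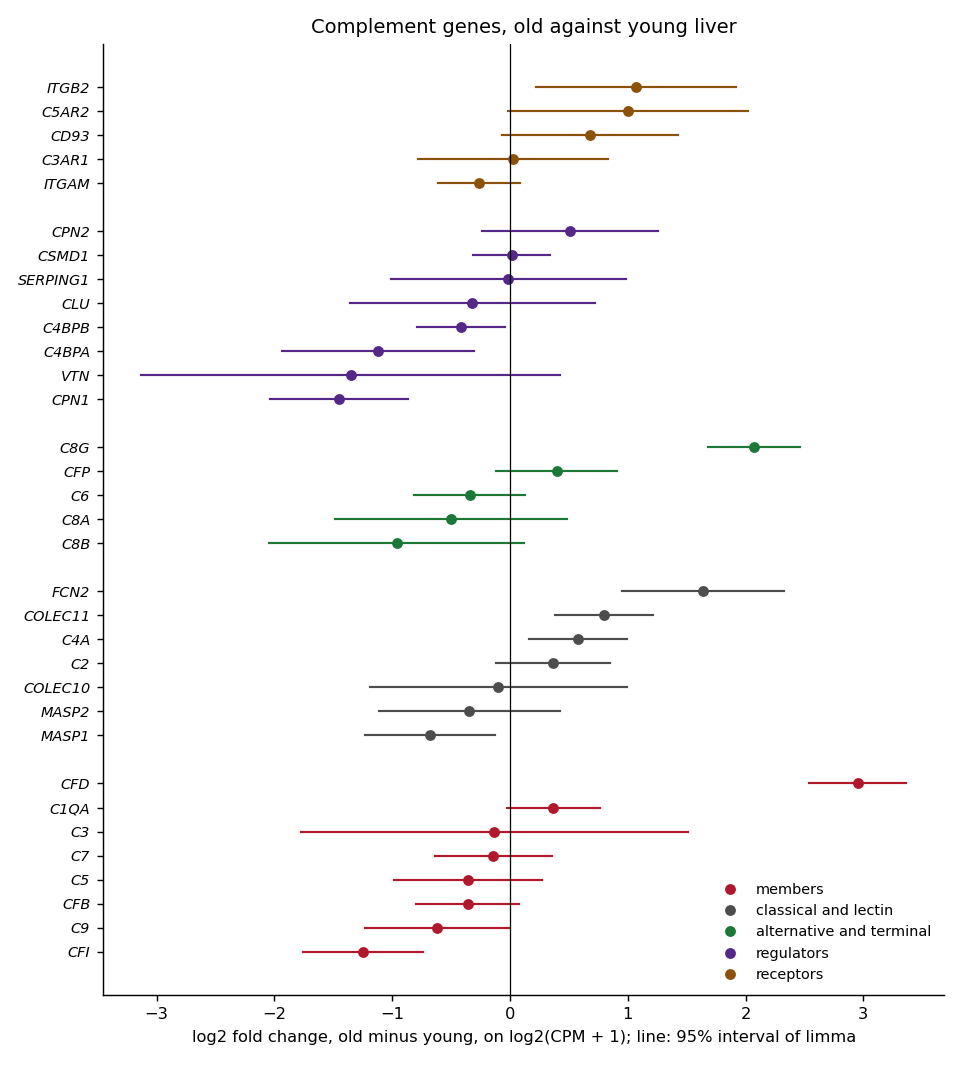
Log2 fold change of log2(CPM + 1), old minus young, with 95% intervals of limma for the 8 complement genes (red) and 25 others grouped by role (other colours). The estimates run from -1.45 for CPN1 to 2.95 for CFD, and the interval of C3 (-1.78 to 1.51) is the widest of the 8.

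Cell type markers also differed between the livers. The livers showed the hepatocyte markers at high levels, ALB being at 29468 and 35205 CPM in young sows against 16534 and 23978 CPM in old sows. Of 10 hepatocyte markers 9 had an identifier, none at 0, and their summed level was 41396 and 51321 CPM in young sows, with 23209 for old replicate 1 against 37196 for old replicate 2. Of these 9, 3 were lower without overlap, 6 overlapped and 0 were higher. Over all tested mRNAs 25.0% were lower and 24.4% higher, and 32.9% and 17.8% of those with a mean of at least 1 CPM. The sum was lower in both old livers, as CFI, CFB, C5 and C9 were, but between the old livers only CFI of these 4 was lower where the sum was lower. The part of hepatocyte content in these differences was not tested.

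Markers of adipocytes, a known source of factor D, and of neutrophils were read beside CFD. Of 5 adipocyte markers only PLIN1 and CIDEC had an identifier, and they summed to 14.3 and 6.91 CPM in young sows against 4.91 and 4.04 CPM in old sows. CIDEC made up nearly all of that sum, at 14.2 and 6.91 CPM in young sows against 4.62 and 3.73 CPM in old sows. PLIN1, which coats the lipid droplets of adipocytes, was at 0.065 and 0 CPM in young sows against 0.292 and 0.306 CPM in old sows, the opposite direction. Of 8 neutrophil markers 4 had an identifier. Their sum was 0.098 and 0.393 CPM in young sows, where 3 were at 0 in each, and 6.03 and 2.06 CPM in old sows. All 4 were above without overlap, beside 24.4% of all tested mRNAs, and no share was computed for mRNAs of such low values alone. More mRNAs of any kind were above 0 in old sows, 17262 and 16978, than in young sows, 15230 and 14291. MPO, 1 of the 4, was at 0.032 and 0.028 CPM in old sows, under the limit of 3 reads. The part of either cell type in the CFD difference was not tested. On either side of CFD in the RefSeq order of Sscrofa11.1, neighbours looked up after the values were seen, MED16 was at 1.22 and 0.763 CPM in young sows against 2.52 and 3.19 CPM in old sows, and ELANE, 1 of the neutrophil markers, was listed at 0 in both young sows against 0.097 and 0.265 CPM in old sows. R3HDM4, next beyond MED16, was at 5.68 and 11.7 CPM in young sows against 4.73 and 5.74 CPM in old sows, which overlapped. PRTN3, next beyond ELANE, was at 0 in both young sows against 0.114 and 0.028 CPM in old sows. Its value in old replicate 2 was under the limit of 3 reads.

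Old replicate 1 stood apart in its interferon-stimulated genes. Of 30 interferon-stimulated genes 20 had an identifier, and they summed to 98.9 and 121 CPM in young sows, with 2060 CPM for old replicate 1 against 82.9 CPM for old replicate 2. Without old replicate 1, the log2 fold changes of CFD, CFI, C1QA and C9 were 3.06, -1.12, 0.33 and -0.84. Of 15 acute phase genes outside complement 6 had an identifier, and they summed to 11106 and 6663 CPM in young sows, with 15230 for old replicate 1 against 4946 for old replicate 2. FGB made up most of that sum, at 7407 and 4366 CPM in young sows against 10375 and 3494 CPM in old sows. Of the 6, 2 were lower in old sows without overlap and 4 overlapped. Lower without overlap were 25.0% of all tested mRNAs and 32.9% of those with a mean of at least 1 CPM. CRP, 1 of the 2, was at 360 and 217 CPM in young sows against 36.7 and 11.9 CPM in old sows. C3 was lowest in the liver where both sums were highest, and highest in the liver where both were lowest. The part of these states in the C3 values was not tested.

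**Figure D5:**
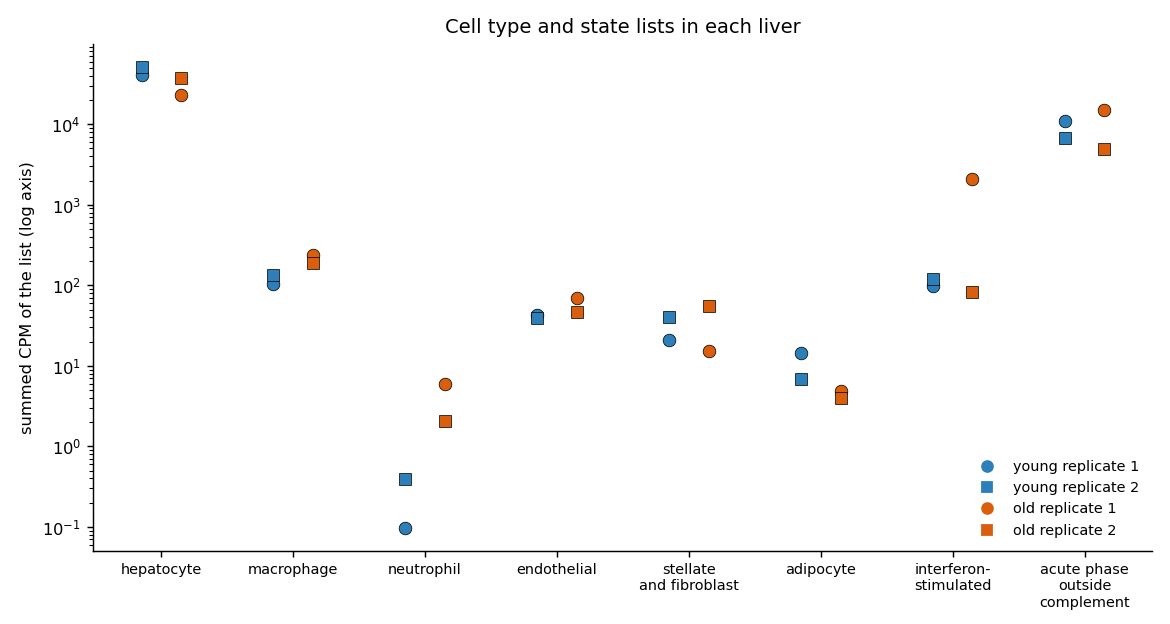
Summed CPM of 8 lists of cell type and state genes in each liver on a log axis, young livers in blue and old livers in orange, circles for replicate 1 and squares for replicate 2. The interferon-stimulated genes reach 2060 CPM in old replicate 1 and lie at 82.9 to 121 CPM in the other livers, and the neutrophil markers are higher in both old livers at a sum of at most 6.03 CPM.

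Among the remaining lists, the endothelial markers (5 of 9) summed to 43.4 and 39.0 CPM in young sows against 69.3 and 46.4 CPM in old sows. Of these 5, 1 was above without overlap, 1 below and 3 overlapped, beside 24.4% and 25.0% of all tested mRNAs. LYVE1 was at 36.5 CPM in old replicate 1 against 7.49 CPM in old replicate 2. The median over the 5 was lower in both old livers, 9.4 and 8.7 CPM in young sows against 3.6 and 8.0 CPM in old sows. The erythroid markers (3 of 8) summed to 622 and 429 CPM in young sows against 306 and 405 CPM in old sows. HBB made up nearly all of that sum, at 617 and 425 CPM in young sows against 302 and 402 CPM in old sows. Neither sum overlapped between ages, and their part in the complement values was not tested. The other sums overlapped. Stellate and fibroblast markers (8 of 10) lay between 15.1 and 55.3 CPM, cholangiocyte markers (6 of 8) between 14.9 and 25.9 CPM, B and plasma cell markers (4 of 7) between 2.42 and 12.4 CPM, skeletal muscle markers (2 of 10) between 1.07 and 5.05 CPM, and T and NK cell markers (6 of 10) at no more than 28.5 CPM.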

How the data were processed

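Total liver RNA was depleted of rRNA and sequenced as paired ends, with 1 library per sow. By the submitters' notes and the paper's methods, the authors mapped reads on Sscrofa10.2 (TopHat2 2.0.14), built transcripts (StringTie 1.2.3) and named their values TPM from Salmon 0.6.0. The values the authors deposited are used as CPM, because all values above 0 of a library (100%, tolerance 0.0006) were whole multiples of 1 step, without gene length. The library total behind the step is not stated. Reads were recovered by dividing by the step, which was tested on simulated data. Replicates were not pooled. Of 21607 identifiers, 11654 have an Ensembl symbol.

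Libraries were grouped by the age in their labels. limma 3.58.1 was fitted to log2(CPM + 1) over 16898 mRNAs above 0 in at least 2 of 4 libraries, with Benjamini-Hochberg adjustment. The pseudocount of 1 understates changes of low values. The study used the exact test of edgeR, which needs counts and was run on recovered reads as an alternative, as were the quasi-likelihood test (edgeR 4.0.16) and DESeq2 1.42.0 (R 4.3.3). Tests were tried on simulated counts. Figures and ratios used Python 3.11.15, pandas 2.3.3, scipy 1.17.1 and matplotlib 3.10.9.

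Alternatives changed the pseudocount, filter, scaling, variance trend, replicate block, test and libraries. Scaling to summed mRNA values was added after seeing the data. Named beside the 8 genes were subunits or partners of them (C2, C6, C8A, C8B, C8G) and other complement genes without overlap and with an absolute log2 fold change above 1. The genes and lists were chosen with earlier results of these data known. Nothing says that the livers stand for more than these 4 sows. The p-values of limma, edgeR and DESeq2 set the difference between ages against the spread within ages. Each test estimates that spread partly from the other mRNAs. Tables of lncRNAs, circRNAs and miRNAs, gene sequences, promoter motifs and coordinates were not used here.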

Additional observations from a re-analysis of the deposited data

How the results depend on the processing

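Under 16 alternatives, CFD, CFI, C1QA, C9, CFB and C5 and the 11 other genes named kept their direction, and C3 and C7 did not. The log2 fold change of CFD ranged from 2.35 (pseudocount of 5) to 3.37 and that of CFI from -1.38 to -1.02. C3 turned from -0.13 to 0.068 with TMM factors, 0.044 with median ratios, 0.10 with summed mRNA values, 0.22 in both edgeR tests, 0.20 in DESeq2 and 0.54 without old replicate 1 (-0.81 to 0.54 with 1 library left out). C7 turned from -0.14 to 0.049, 0.026, 0.083, 0.053 and 0.027 under the same scalings, edgeR tests and DESeq2. The cause was not tested, and the 3 scalings moved the median of mRNAs with a mean of at least 1 CPM up by 0.13 to 0.18 (log2). Calls over all mRNAs were 0 in limma, 2 when a mean of at least 1 was required, 534 in the exact test of edgeR and 880 in DESeq2. The corresponding calls among the 8 genes were 0, 0, 1 and 2, and among the other complement genes 0, 0, 2 and 3. Leaving out 1 library sets 2 livers against 1, which by construction never lowers the number of genes without overlap, so no count is read there. With the replicate number as a block, 0 mRNAs were called (adjusted p = 0.344 for CFD, limma). The numbers pair no animals, and same-numbered livers deviated together with a correlation of 0.090 across mRNAs. The 2 livers per age limit every comparison, and depth was lower in both old libraries.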
